A study of Canis lupus familiaris with 33 samples.

Results

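The regions described here are the MBD-seq peaks at the proximal ends of the dog autosomes, taken as all peaks on chromosomes 1 to 38 whose start coordinate lies below 3 Mb. The 11 tissue lists held 235198 such peaks, which were 7.45% of their 3158680 autosomal peaks and part of 3300391 peaks in all. Merging the overlapping peaks of all lists gave 450791 autosomal union regions, of which 29122 (6.46%) started in the first 3 Mb. These ends made up 114 Mb of 2203.66 Mb of autosomal sequence (5.17%), with each autosome measured to the end of its last peak. The rule used position alone, so density, width, fold and sharing among tissues were free to take any value.

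The study profiled DNA methylation in 11 normal tissues of adult beagles: 2 brain tissues (cerebrum and cerebellum), 4 digestive organs (stomach, colon, pancreas and liver), lung, kidney, spleen, ovary and mammary gland. In MBD-seq, sheared genomic DNA is captured by a protein domain that binds methylated CpG, and the captured fragments are sequenced. Each tissue had 2 capture libraries and 1 input library, 22 and 11 in all, from fragments of about 300 bp, 500 ng of DNA and elutions at 600 and 800 mM salt. No treatment or engineered allele entered the comparison, and all lists shared the beagle background. The labels named 3 dogs, 1 male and 2 female, whereas 4 different animal identifiers occur in the sample titles, and the animal jj8 was labelled male in 7 capture libraries and female in 7 input libraries. The input library came from jj8 in 7 tissues and from another animal, called animal A here, in the remaining 4 (pancreas, ovary, kidney and mammary gland). By the titles, 1 capture library of every tissue came from animal A. The other came from animal B in colon and stomach, from animal C in ovary and mammary gland, and from jj8 elsewhere. Colon, stomach, ovary and mammary gland had no library labelled male. Their differences from other tissues cannot be told apart from those of animal and sex. Both capture libraries of a tissue carried 1 common peak list. No spread between animals could therefore be computed within a tissue, and the 11 lists served as the units of every comparison.

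In mammals DNA methylation is found mostly on cytosines followed by guanine (CpG), and methylated CpG over gene promoters and repeats is associated with silencing. Capture by a methyl-CpG-binding domain responds to the number of methylated CpG in a fragment, so a peak reports both methylation and CpG density. All dog autosomes are acrocentric: the centromere lies close to 1 end of the chromosome. By convention numbering starts at the centromeric end, but which physical end each coordinate start represents was not tested. CpG density, repeats, gene content and the alignability of reads at these ends were not analysed here, and their part in the differences below was not tested.

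The lists held 260977 to 370761 peaks, and the number of reads behind them is unknown. Relative fold denotes the deposited fold enrichment of a peak divided by the median of its list, whose medians ran from 6.19 to 8.73. The proximal members numbered 19413 in mammary gland to 24447 in ovary, with a median of 21546, and made up 6.91% to 7.87% of the autosomal peaks of a list. Tissues share a genome and animals. A p-value over the 11 lists therefore measures only whether the lists differ in the same direction, and the smallest value that the exact sign-flip permutation test can give with 11 lists is 0.000977.

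Proximal ends carried more peaks per Mb than the remaining autosomal sequence in every tissue. Proximal density was 209.5 peaks per Mb in cerebellum, 189.0 in cerebrum, 172.3 in colon, 189.6 in kidney, 193.2 in liver, 173.4 in lung, 170.3 in mammary gland, 214.4 in ovary, 177.9 in pancreas, 190.3 in spleen and 183.2 in stomach. In the same order the rest held 151.7, 131.6, 110.9, 131.7, 130.3, 114.8, 113.4, 157.5, 113.7, 123.3 and 119.9 peaks per Mb. The lowest proximal value exceeded the highest value of the rest, so the 2 sets did not overlap. Mean density was 188 ± 14.5 peaks per Mb (SD, n = 11 lists) at the proximal ends and 127 ± 15.6 in the rest, a ratio of 1.48 (geometric mean). The log2 difference was 0.57 ± 0.07, higher in 11 of 11 tissues (exact two-sided sign-flip permutation test, p = 0.000977, adjusted over 6 measures 0.000977). The ratio was smallest in ovary (1.36) and largest in pancreas (1.57). Ovary and cerebellum, the 2 longest lists, had the smallest log2 differences, 0.44 and 0.47. With every list reduced to the same number of its highest-fold peaks, ovary stood at 0.53 and cerebellum at 0.54, still the 2 smallest, and all lists lay between 0.53 and 0.65.

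Proximal peaks were also wider and had higher folds, and peaks covered a larger share of the proximal sequence, as their greater number and width entail. Peaks covered 14.2% ± 1.36 of the proximal ends against 7.32% ± 1.00 of the rest (SD, n = 11 lists), 1.95 times as much, with ratios of 1.80 to 2.06. Median peak width was 387 ± 32.3 bases against 326 ± 26, a ratio of 1.14 to 1.21. The 90th percentile of proximal peak width was 1413 to 1725 bases, against 967 to 1253 bases in the rest. Median relative fold was 1.13 ± 0.02 at proximal ends and 0.995 ± 0.003 elsewhere, a log2 difference of 0.19 ± 0.03. Before division by the list median, proximal median folds ran from 7.01 to 10.2 and those of the rest from 6.14 to 8.70. The deposited median −log10 p ran from 24.5 to 40.2 at proximal ends and from 19.7 to 31.4 in the rest. Coverage, width and relative fold were each higher in 11 of 11 tissues (exact two-sided sign-flip permutation test, p = 0.000977 and adjusted p = 0.000977 for each).

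Comparing peaks of similar width left a smaller difference in relative fold. Medians of relative fold were taken within classes of peak width and averaged with the class shares of the rest. The log2 difference between these averages was 0.05, whereas the value of 0.19 is between plain medians. The widest class was open-ended, so widths were matched only coarsely. By mean instead of median width, the log2 difference in width was 0.39 instead of 0.25. Leaving out any 1 tissue kept the log2 density difference between 0.56 and 0.58.

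**Figure D1:**
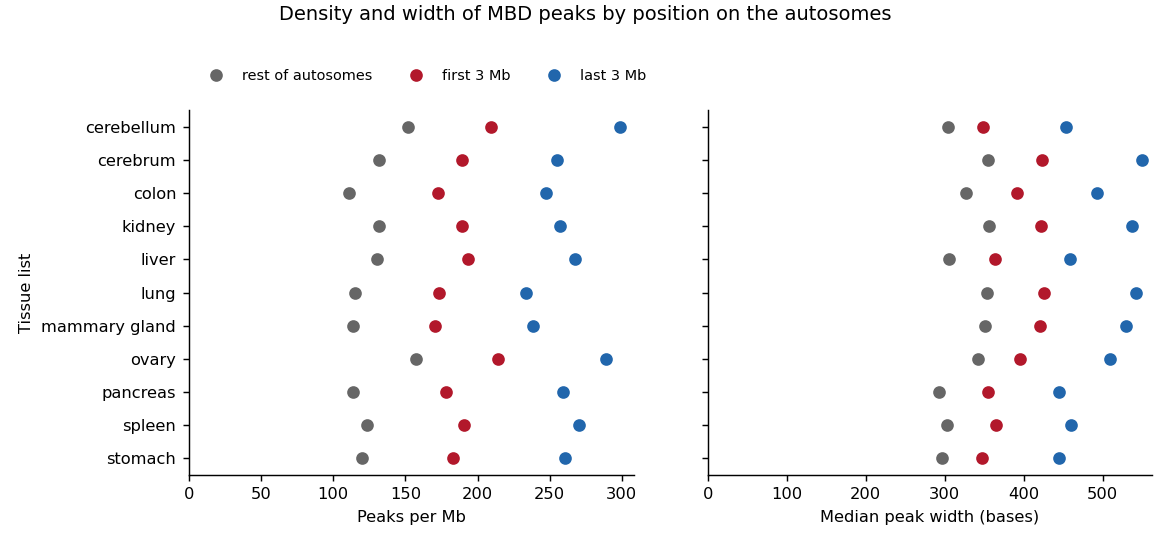
Peaks per Mb (left) and median peak width in bases (right) of the 11 tissue lists, 1 point per list, in the first 3 Mb of the autosomes, the rest of the autosomes and the last 3 Mb. In every list the first 3 Mb lay above the rest and below the last 3 Mb, with mean densities of 188, 127 and 262 peaks per Mb.

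The opposite chromosome ends exceeded the proximal ends on each of these measures. The last 3 Mb of the same autosomes, which are also part of the rest, held 262 ± 19.6 peaks per Mb (SD, n = 11 lists), so that the proximal ends reached 0.717 of distal density. Peaks covered 26.6% of the distal ends, and their median width was 493 bases. Distal median relative fold was 1.28, a log2 difference of -0.18 ± 0.04 for proximal minus distal. Density, coverage, width and relative fold were lower proximally in 11 of 11 tissues (exact two-sided sign-flip permutation test, p = 0.000977, adjusted 0.00117 for each). Without the last 3 Mb, the interior of the autosomes held 119 peaks per Mb, and the proximal ends had 1.58 times its density and 2.30 times its covered share.

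Along the chromosome the excess declined gradually and did not stop at the 3 Mb limit. Mean density in bins of 0.5 Mb was 166 peaks per Mb next to the chromosome start, 207 in the second bin, and then 202, 199, 190 and 161 up to the limit. The 4 bins after it held 151, 139, 122 and 134 peaks per Mb, and the last bin before 10 Mb held 89.8. Median width was 411 bases in the second bin, 349 in the bin before the limit, 325 in the bin after it and 292 in the last bin. Relative fold peaked at 1.21 in the second bin and was 1.05 and 0.996 on either side of the limit. The first bin was thus less dense than the 4 that followed, although its peaks were of similar width (391 bases). In the 100 kb just inside the limit the lists held 179 ± 16.5 peaks per Mb with a median width of 357 bases, and in the 100 kb just outside 164 ± 18.8 peaks per Mb with 330 bases (SD, n = 11 lists). With a limit of 5 Mb in place of 3 Mb the log2 differences from the rest fell to 0.64 for coverage, 0.14 for width and 0.12 for relative fold, and that in density to 0.40.

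**Figure D2:**
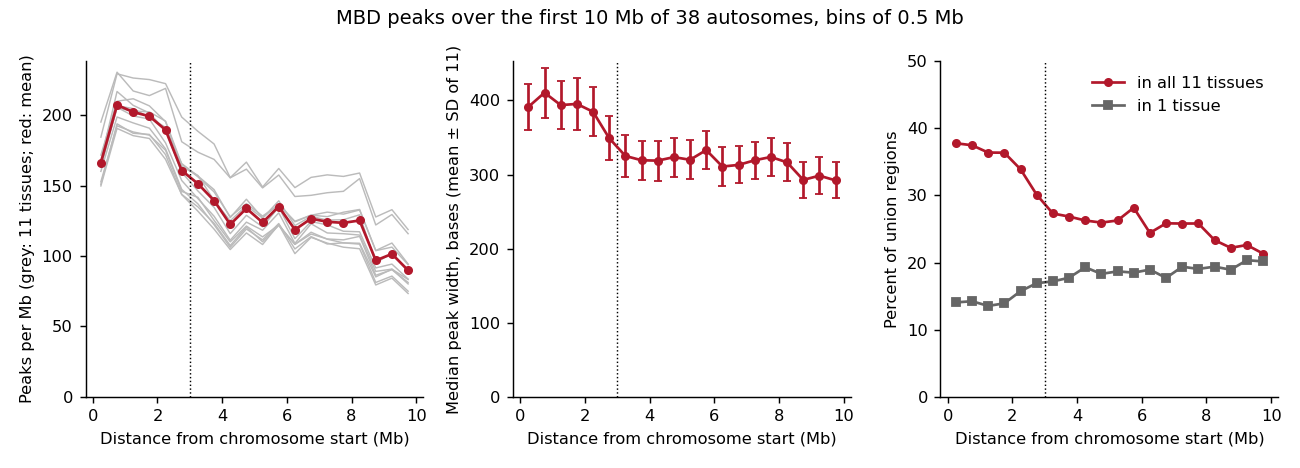
Peaks per Mb (grey lines for 11 tissues, red for their mean), median peak width in bases (mean ± SD of 11 lists) and percent of union regions found in all 11 tissues or in 1 tissue, against distance from the chromosome start in bins of 0.5 Mb over 38 autosomes. The dotted line marks 3 Mb, where density has fallen from 207 peaks per Mb in the second bin to 161, and the decline continues beyond it.

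The first peak usually lay close to the start of the assembled chromosome. The first union region began at a median of 779 bases, within the first 1 kb on 21 of 38 autosomes, at base 93 on chromosome 8 and at base 44003 on chromosome 14. Neighbouring proximal regions were separated by a median of 1177 bases, against 1698 in the rest and 741 in the distal ends. Among 1140 proximal windows of 100 kb, 2 (0.175%) held no region, the median was 23 regions and the highest count was 73, on chr38:700001-800000. That window held 20 regions with a peak in all 11 tissues. In the rest the median window held 16 regions and the highest also 73. Windows with 40 or more regions made up 18.4% of the proximal windows and 12.0% of the others. The longest proximal stretch without a region was 272 kb on chr7:1671877-1943652, followed by 106 kb on chr16:1368869-1475293. Whether unresolved bases of the assembly lie in these stretches was not tested.

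The proximal ends of the 38 autosomes differed widely from each other. Mean proximal density ran from 63.3 peaks per Mb on chromosome 29 to 436 on chromosome 9, a 6.88-fold range, whereas the rest of the chromosomes ran from 61.0 to 190 peaks per Mb, a 3.12-fold range. The coefficient of variation over chromosomes was 49.4% at proximal ends, 25.8% in the rest and 31.9% at distal ends. Averaged over tissues, 26 autosomes were denser at the proximal end than in their rest and 12 were less dense. The direction was the same in all 11 lists for 23 of the denser and 10 of the less dense autosomes, and 5 were mixed. A density above 190 peaks per Mb, the highest in the rest of any autosome, was reached by 18 proximal ends. The higher density of proximal ends is therefore a property of their sum and of 26 autosomes, not of each autosome.

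Chromosomes 9, 1 and 17 had the densest proximal ends. Chromosome 9 held 436 ± 36.7 peaks per Mb (SD, n = 11 lists; 393 to 486), against 185 in its rest and 184 at its distal end. Chromosome 1 held 351 ± 15.9 peaks per Mb, against 141 in its rest and 341 distally, and exceeded its distal end in 7 of 11 lists. Chromosome 17 held 344 ± 21.7 peaks per Mb, against 111 and 131. Union regions of all tissues covered 69.7% of the first 3 Mb of chromosome 9 and 61.0% of that of chromosome 17, so that most of the sequence there was under a peak in at least 1 tissue. Peaks at these ends were wide, with medians of 700 ± 101 bases on chromosome 9 and 760 ± 77.0 on chromosome 17. On chromosome 17 median relative fold reached 1.87 ± 0.19 and 62.0% of the union regions had a peak in all 11 tissues. Relative to their own rest, chromosomes 27, 22, 19 and 17 stood highest, with ratios of 3.54, 3.28, 3.21 and 3.1.

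Chromosomes 29, 21 and 31 had the sparsest proximal ends. Chromosome 29 held 63.3 ± 11.7 peaks per Mb (SD, n = 11 lists; 50 to 86.3), against 87.7 in its rest and 305 at its distal end. Chromosome 21 held 70.7 ± 14.6 peaks per Mb, against 111 and 239, and chromosome 31 held 77.6 ± 12.9, against 107 and 336. Each was below its own rest in 11 of 11 lists. Union regions covered 4.54% of the first 3 Mb of chromosome 29, and median peak width there was 279 ± 23.7 bases. Chromosome 2 had the lowest ratio to its rest, 0.514, with 86.6 peaks per Mb proximally, 168 in its rest and 393 distally. Sparse proximal ends thus lay on autosomes with dense distal ends as well as on autosomes such as 13 and 32, with 105 and 106 peaks per Mb proximally and 76.2 and 72.7 distally.

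**Figure D3:**
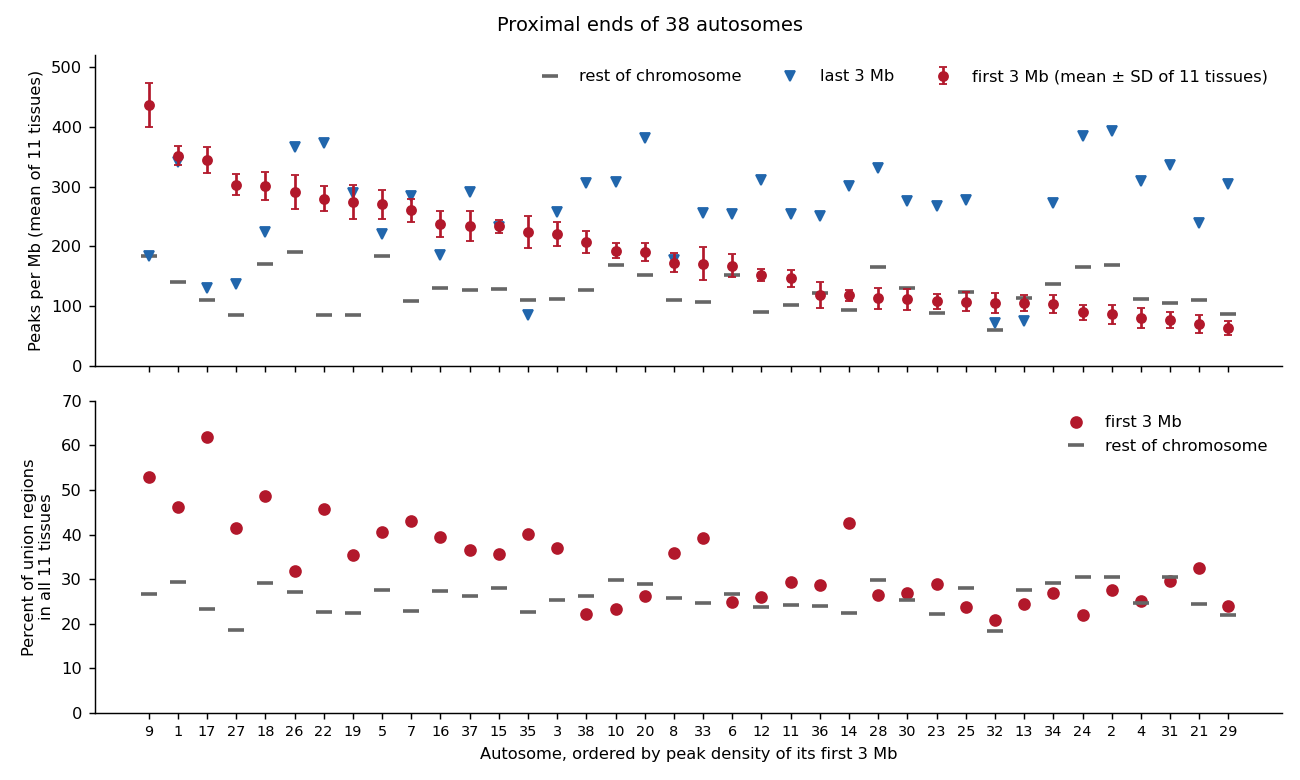
Upper panel, peaks per Mb of the 38 autosomes in the first 3 Mb (red, mean ± SD of 11 lists), in the rest (grey bars) and in the last 3 Mb (blue), ordered by proximal density. Lower panel, percent of union regions with a peak in all 11 tissues in the first 3 Mb and in the rest; chromosome 17 reached 62.0% and the proximal densities ran from 436 to 63.3 peaks per Mb.

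The proximal end was denser than the distal end of the same chromosome on 11 autosomes (1, 5, 9, 13, 15, 16, 17, 18, 27, 32 and 35), on 8 of them in all 11 lists. On 24 autosomes it was less dense in all 11 lists. Chromosome 35 held 224 peaks per Mb proximally and 85.7 distally, and chromosome 27 held 303 and 137. Over the 38 autosomes, proximal density had a Spearman correlation of 0.18 with the density of the rest, -0.21 with distal density and 0.19 with chromosome length. It went with the median width of the union regions (0.93), with relative fold (0.72) and with the percent of regions found in all tissues (0.71). These correlations are descriptions over chromosomes of the same 11 lists, in which denser peaks also merge into wider regions. The 5 densest proximal ends held 24.3% of the members and the 10 densest 43.7%. Leaving out chromosome 17, whose absence lowered the log2 density difference the most, gave 0.53 in place of 0.57.

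The order of the chromosomes was nearly the same in each tissue. Spearman correlations of proximal density over the 38 autosomes ran from 0.967 to 0.996 over the 55 tissue pairs, with a median of 0.984. The coefficient of variation over tissues within a chromosome had a median of 10.0%, and the lists differed in total length as well. Cerebellum gave the clearest departures. On chromosome 6 it held 147 peaks per Mb proximally, where the other tissues ran from 140 to 214 with a median of 167, although in the rest of that chromosome it held 177 against a median of 146. On chromosome 21 it held 99.7 peaks per Mb, where the others ran from 55.3 to 94.7. Cerebellum was also high in the rest of chromosome 21, with 138 peaks per Mb against a median of 104. On chromosome 9, ovary held 410 peaks per Mb and pancreas 486, the reverse of their order in list length. These tissue and chromosome combinations were chosen after their values were seen.

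Summed over autosomes, proximal union regions were shared among tissues more often than those elsewhere. A peak in all 11 tissues was found for 10297 of 29122 proximal regions (35.4%, 95% Wilson interval 34.8 to 35.9, counting error only), against 26.4% in the rest, 40.8% in the distal ends and 27.0% of all autosomal union regions. A peak in 1 tissue was found for 4284 proximal regions (14.7%, 14.3 to 15.1), against 18.5% in the rest, 13.5% distally and 18.2% of all. Regions absent from 1 tissue numbered 2640 (9.07%), against 8.79% in the rest and a background of 8.81%, a share near the background. A proximal region held peaks of 7.0 tissues on average, against 6.27 in the rest and 7.28 distally. Regions of all 11 tissues held 68.4% of the bases covered proximally, 54.1% of those in the rest and 77.8% of those covered distally. By chromosome, the share in all 11 tissues was larger proximally than in the rest on 27 of 38 autosomes, and the median union region was wider on 23. Both density and this share were higher on 22 autosomes and neither on 7. On chromosome 38 the share was 22.1% proximally and 26.2% in the rest, and on chromosome 10 it was 23.2% and 29.9%.

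Counted per peak and list, 61.0% ± 6.65 of the proximal peaks lay in regions of all 11 tissues, against 51.3% ± 7.38 of the other peaks (SD, n = 11 lists). The difference was 9.61 ± 1.07 percentage points, from 8.18 in lung to 12.1 in cerebellum, and higher in 11 of 11 tissues (exact two-sided sign-flip permutation test, p = 0.000977, adjusted 0.000977). Peaks in regions of 1 tissue made up 1.68% of proximal peaks and 2.32% of the others, a difference of -0.646 ± 1.00 points that was negative in 11 of 11 tissues (the same exact permutation test, p = 0.000977, adjusted 0.000977). With each autosome weighted equally the difference in regions of all 11 tissues was 6.36 points. The difference in regions of 1 tissue ran from -3.07 points in cerebellum to -0.0261 in pancreas, so the SD exceeded the mean. With only the 50% of peaks of highest fold in each list, the mean difference in regions of 1 tissue was -1.12 points. The distal ends had 7.35 ± 1.25 points more of their peaks in regions of all 11 tissues than the proximal ends (11 of 11 tissues, exact permutation p = 0.000977, adjusted 0.00117). They had fewer peaks in regions of 1 tissue in 10 of 11 tissues, with mammary gland the exception, by 0.292 points on average (exact permutation p = 0.00391, adjusted 0.00391), or by 0.497 points among the 50% of peaks of highest fold. A region counts as shared only when all lists have it, so the per-list values of this measure are not independent.

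**Figure D4:**
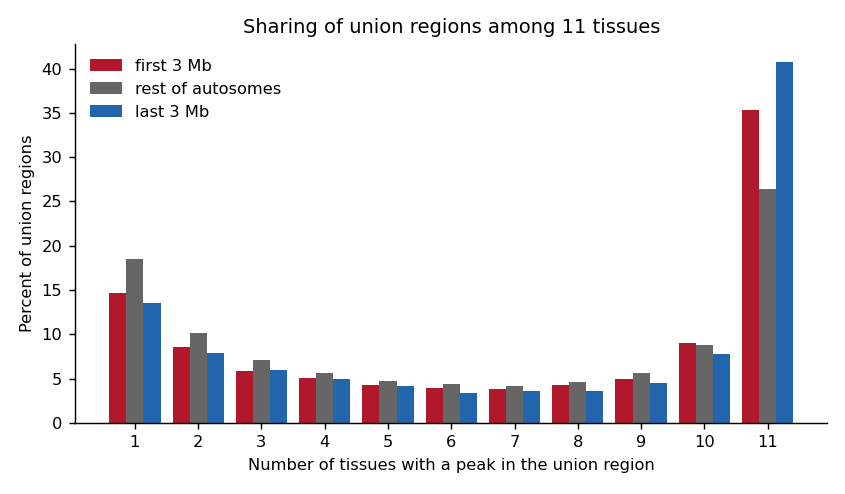
Percent of union regions (vertical axis) by the number of tissues with a peak in the region (horizontal axis) in the first 3 Mb, the rest and the last 3 Mb of the autosomes. The proximal share lies between the other 2 at both extremes, with 35.4% in all 11 tissues and 14.7% in 1 tissue.

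Shares within classes of union width are a description only, because merging the peaks of more tissues itself widens a region. No proximal region under 250 bases had peaks in all 11 tissues, and every one of at least 5 kb did. Among regions of 300 to 400 bases, 17.6% of the proximal and 16.8% of the other regions had peaks in all 11 tissues. The shares were 35.9% and 31.0% at 400 to 600 bases, 59.1% and 52.6% at 600 to 1000 bases, and 86.5% and 83.0% at 1 to 2 kb. At 2 to 5 kb they were 98.3% and 98.1%. The widths of single peaks do not come from merging. With proximal peaks weighted to the rest by the same coarse classes of peak width, the difference in peaks of regions of all 11 tissues was 3.36 ± 0.84 points. It was 9.61 without weighting, and higher in 11 of 11 tissues in both cases. In the same weighting the share of peaks in regions of 1 tissue was lower proximally in 8 of 11 tissues, by -0.257 points on average (exact permutation p = 0.0283).

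Long domains under peaks were more frequent at the proximal ends than in the rest. Union regions of at least 2 kb numbered 2102 (7.22% of proximal regions, against 3.78% in the rest and 12.5% distally). Regions of at least 5 kb numbered 501 (1.72%, against 0.642% and 3.53%) and those of at least 10 kb numbered 96 (0.330%, against 0.117% and 0.848%). Chromosome 9 held 102 and chromosome 17 held 93 of the proximal regions of at least 5 kb, and 15 autosomes held none. The widest proximal region, chr18:1910073-1949095, spanned 39 kb and was covered by peaks over 89.1% to 99.3% of its length in every tissue. Its length was cut into 2 peaks in cerebrum and 19 in pancreas. Its relative fold had a median of 3.93 over tissues, with 2.58 in ovary as the lowest and 6.94 in mammary gland as the highest. A neighbour, chr18:1969788-1998568, spanned 28.8 kb with a median relative fold of 3.58 (2.31 in ovary to 6.38 in lung). On chromosome 9, chr9:1012597-1038547 spanned 26 kb with a median of 3.62 (2.31 in ovary to 7.14 in mammary gland), and was a single peak in lung and 5 peaks in pancreas. Coordinates are 1-based on CanFam3.1, and the genes there were not analysed here.

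Proximal regions of all 11 tissues had a higher median relative fold than those in the rest. The relative fold of a tissue in a region is that of its strongest peak there. Over all such proximal regions its median was 1.72, against 1.45 in the rest, with median region widths of 929 and 787 bases. The highest median over tissues was 4.76, at chr3:2107337-2110123, where ovary had 2.77, spleen 3.32, liver 3.38, cerebrum 4.13, cerebellum 4.21, pancreas 4.76, kidney 4.94, stomach 5.02, colon 5.02, mammary gland 5.84 and lung 6.62. Every tissue was thus at 2.77 times its list median or above, with lung highest and ovary lowest. Regions were picked here by their median over tissues, so high values in most tissues follow from the picking. The next 4, at most 1 per chromosome, were chr35:725323-729224 (median 4.62, 2.24 to 5.94), chr37:441509-443508 (4.57, 2.86 to 6.88), chr33:492764-495810 (4.55, 2.06 to 5.91) and chr16:280877-298771 (4.54, 2.87 to 7.20). The region on chromosome 16 was 17.9 kb wide and the other 4 were 2.0 to 3.9 kb wide. In relative fold, ovary was lowest in all of these but the region on chromosome 33, where cerebrum was lowest. The highest relative fold was that of lung or mammary gland in each. Before division by the list median the lowest tissues were the same, but the highest were not. Stomach was then highest on chromosomes 3 (43.8, lung 41.0) and 33 (39.7, lung 36.6), and colon on chromosome 35 (42.6, lung 36.8). Mammary gland was highest on chromosomes 16 and 37.

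That order of tissues extended to the shared regions as a whole. Relative to the mean of the 11 tissues in the same region, the median log2 relative fold at proximal ends was 0.21 in lung, 0.15 in mammary gland and 0.09 in kidney, and -0.06 in cerebellum and liver and -0.19 in ovary. In the rest the values were 0.13 in lung, 0.07 in mammary gland, 0.10 in kidney, 0.00 in cerebellum, -0.02 in liver and -0.09 in ovary. In 7 of 11 tissues (lung, mammary gland, ovary, cerebellum, liver, colon and spleen) the proximal values were farther from 0 than those of the rest and the distal values farther still, as with 0.23 in lung, 0.21 in mammary gland and -0.26 in ovary. Cerebrum, kidney, pancreas and stomach did not show both steps. With 1 list per tissue, differences between tissues have no replicate check. For ovary, mammary gland, colon and stomach they also go with a different capture animal. Ovary and cerebellum, both below 0 at proximal ends, had the longest lists, but pancreas, with 268082 peaks, was also below 0 (-0.04), and kidney, with the fourth longest list, was above 0. The part of list length in these values was not tested, nor was that of the list median, which was lowest in lung (6.19).

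Variation among tissues in shared regions was about as large at proximal ends as elsewhere. The SD over tissues of log2 relative fold had a median of 0.42 both at proximal ends and in the rest, and reached 0.5 or more in 2668 proximal regions (25.9%, against 25.1% in the rest). The most variable proximal region was chr33:635487-635841, 355 bases wide, with an SD of 1.28. There relative fold was 0.416 in ovary, 1.38 in cerebellum, 1.63 in cerebrum, 1.75 in spleen, 2.50 in liver, 2.85 in stomach, 3.66 in mammary gland, 4.09 in lung, 4.62 in kidney, 7.35 in pancreas and 10.7 in colon. Colon exceeded ovary 25.8-fold, and ovary was the only tissue below its list median. Peaks covered 74.9% to 100% of that region in every tissue. At chr1:759955-760885 (SD 1.14) pancreas had 0.376, cerebellum 0.454, kidney 0.668, cerebrum 1.19 and ovary 1.33, and the other 6 tissues ran from 2.03 in liver to 3.20 in lung and colon. Cerebellum, cerebrum and ovary were among the 5 lowest tissues in both this region and that on chromosome 33, whereas pancreas was lowest here and second highest there. Peaks covered 23.0% of the region on chromosome 1 in cerebellum, 45.8% in kidney and 69.4% in pancreas, against 78.5% to 99.4% in the others.

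On chromosome 36 relative fold was below 1 in ovary, kidney and liver and above 1 in the other 8 tissues. At chr36:2550742-2552832, 2.1 kb wide (SD 1.14), relative fold was 0.424 in ovary, 0.654 in kidney and 0.664 in liver, whereas it was 1.92 in cerebrum, 2.51 in cerebellum, 2.53 in lung, 2.66 in spleen, 2.74 in stomach, 3.38 in colon, 3.52 in pancreas and 4.24 in mammary gland. Peaks covered 15.5% of this region in ovary, 44.0% in kidney, 45.0% in cerebellum and 63.2% in liver, against 86.8% to 98.4% in the other 7, so the fold of a tissue can belong to a peak over a small part of it. The neighbouring region at lower coordinates, chr36:2549076-2550495, which was noticed after its values were seen, was the fifth most variable. It had 0.427 in ovary, 0.555 in liver and 0.798 in kidney, and 1.23 in cerebrum to 4.54 in mammary gland in the others. Peaks covered 53.4% of it in ovary and 71.4% to 96.8% in the others. Both regions had ovary, kidney and liver as their 3 lowest tissues.

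**Figure D5:**
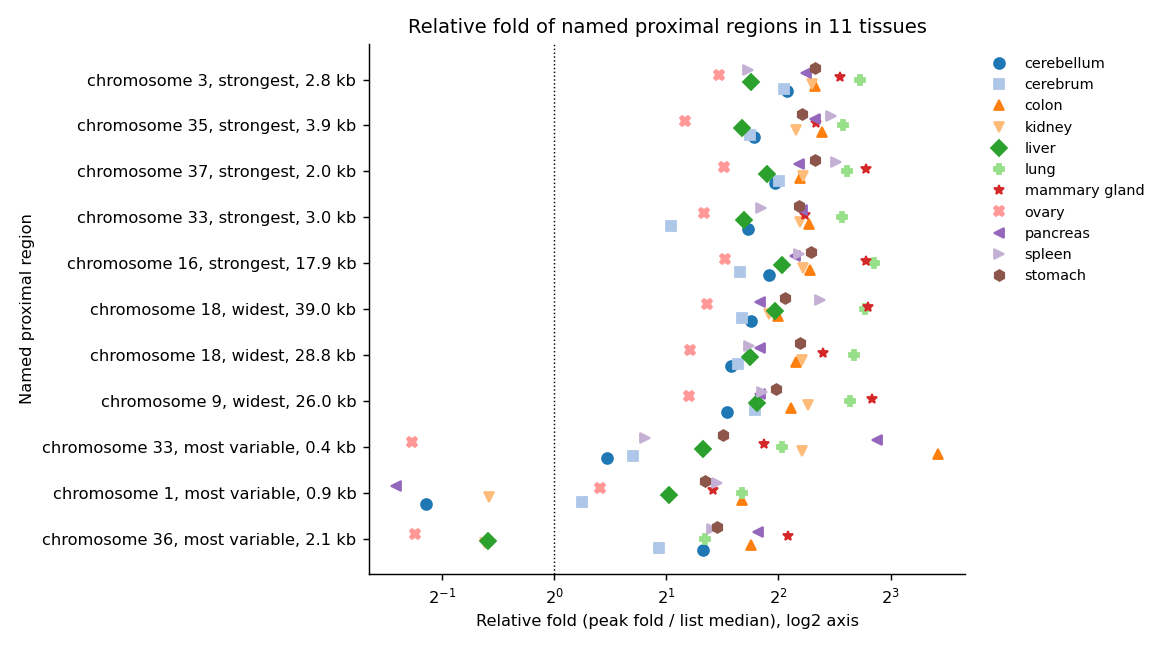
Relative fold (log2 axis) of the 11 tissues in the 5 strongest, 3 widest and 3 most variable proximal regions with a peak in all tissues, 1 symbol per tissue, vertically offset for legibility. The strongest and widest regions stay above 2 in every tissue with ovary at or near the lower edge, whereas the 3 most variable regions span 8.51-fold to 25.8-fold.

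Regions found in a single tissue were narrow and weak, and most came from the 2 longest lists. Of the 4284 proximal regions of 1 tissue, cerebellum held 1772 (41.4%, against 42.7% in the rest), ovary 1337 (31.2%, against 32.2%), stomach 42 and pancreas 28. Their median width was 246 bases, against 245 in the rest. The highest relative fold of a region in 1 tissue alone was 1.67, in cerebellum at chr2:2715600-2715945. It was 1.60 in liver at chr20:2479681-2480638, 1.45 in colon at chr24:1025782-1026657, 1.44 in ovary at chr19:2709782-2710120 and 1.29 in cerebrum at chr38:1865508-1865848. In the remaining 6 tissues the strongest region ran from 0.804 in stomach to 1.22 in spleen. No region of 1 tissue therefore reached 1.72, the median of the regions of all tissues.

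Absence from a single tissue was spread unevenly as well. Of the 2640 proximal regions with peaks in 10 tissues, 967 lacked cerebellum (36.6%, 95% Wilson interval 34.8 to 38.5, against 32.9% in the rest, 32.4 to 33.4). Spleen was the missing tissue in 193 (7.31%, 6.38 to 8.37, against 9.64%, 9.34 to 9.94), lung in 253 (9.58%, 8.52 to 10.77, against 11.1%, 10.78 to 11.4), stomach in 118 (4.47%, 3.75 to 5.33, against 3.50%, 3.31 to 3.69) and ovary in 246 (9.32%, 8.27 to 10.5, against 8.60%, 8.32 to 8.89). The intervals did not overlap for cerebellum, spleen, stomach and, narrowly, lung, and overlapped for ovary and the other 6 tissues. They cover counting error only, and neighbouring regions are not independent. Cerebellum was thus the tissue most often present alone and also the tissue most often missing alone. Of regions with peaks in at least 2 tissues, ovary was present in 85.5% and colon in 65.0% at proximal ends. Presence exceeded that in the rest in each tissue, by 2.10 points in ovary and 2.33 in cerebellum up to 7.14 in lung.

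The most frequent pair and triple of tissues at proximal ends were those of the 2 longest lists, alone and with cerebrum, and no difference in these shares from the rest was tested. Of 2509 proximal regions with peaks in 2 tissues, 751 were of cerebellum and ovary (29.9%, against 32.2% in the rest), 250 of cerebellum and cerebrum (9.96%, against 9.63%) and 220 of kidney and ovary (8.77%, against 8.14%). Of 1709 regions of 3 tissues, 347 were of cerebellum, cerebrum and ovary (20.3%, against 19.1%), 188 of cerebellum, kidney and ovary (11.0%, against 13.4%) and 46 of kidney, ovary and spleen (2.69%, against 1.63%). The pair of brain tissues thus ranked below the pair of the 2 longest lists.

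No difference in the size of the proximal excess passed the test between tissues grouped by the animal of the input library or by the shortest peak of the list. The mean log2 density difference was 0.55 in the 4 tissues with input from animal A and 0.57 in the 7 with input from jj8 (exact two-sided permutation test over 330 splits, p = 0.594, adjusted over 12 comparisons 0.988). It was 0.59 in the 6 lists whose shortest peak was under 200 bases and 0.53 in the other 5 (exact permutation test over 462 splits, p = 0.175, adjusted 0.701). Over the 6 measures and both groupings the lowest unadjusted p was 0.0823, for relative fold between the classes of shortest peak (exact permutation test, adjusted 0.701). These tests do not show that the groups are alike.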

How the data were processed

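MBD-seq peak lists of 11 tissues were used as deposited by the authors, 1 per tissue. Positions are on CanFam3.1, per the submitters' processing notes. The aligner, peak caller, filters and the way libraries were combined are not given in the sources used here. Per the deposited narrow-peak columns, each peak has a score (not used), a fold enrichment read as a ratio from its place and range, and a −log10 p. All of these are the authors' values for single peaks and were not recomputed, and no column of per-sample values was left unused (0).

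Peaks starting below 3 Mb on autosomes 1 to 38 were compared with all others in 6 measures: peaks per Mb, percent of bases covered, median width, median relative fold, and percent of peaks in union regions (peaks merged over lists, presence by 1 base of overlap) of all 11 tissues or of 1. Differences were log2 ratios, or percentage points for sharing, tested by exact two-sided sign-flip permutation over tissues with Benjamini-Hochberg adjustment at 0.05. Regions named are the 5 strongest shared (1 per chromosome), the strongest of each tissue alone, the 3 widest and the 3 most variable, with the 3 densest and 3 sparsest chromosomes. Members, measures and lists were chosen with earlier results of these data known. Density, width, relative fold and the share in all 11 tissues were tested on simulated lists, in which separate sites did not merge. Coverage, the share in 1 tissue and the weighting by width were not tested in this way. Genes and sequence were not analysed here. Software was Python 3.11.15, numpy 2.4.6, pandas 2.3.3 and scipy 1.17.1.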

Additional observations from a re-analysis of the deposited data

Results flagged for a closer look

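In 4 groupings of tissues, the difference in the percent of peaks found in 1 tissue (proximal minus rest) had a value far from the others of its group. Ovary stood at -2.15 points among the 4 tissues with input from animal A, and again among the 5 lists whose shortest peak was over 200 bases. Cerebellum stood at -3.07 points among the 7 tissues with input from jj8, and again among the 6 lists whose shortest peak was under 200 bases. These are the 2 longest lists, with the most regions of their own. Chance marks about 1 in 20 groups in this way. Of 24 combinations of group and measure examined, these 4 were all those of this measure, and 0 of the 20 for the other 5 measures had such a value. The 4 are not independent, since the same 2 tissues were counted in both groupings.

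Chromosome X was outside the comparison. The acrocentric form given above is that of the autosomes, and which kind of end the start of X represents was not tested. The values of X are therefore not a further case of a proximal end. The first 3 Mb of X held a median of 380 peaks per Mb over tissues (342 to 435), against 93.1 (70.9 to 139) in the rest of X. The ratio was 3.13 to 5.0 over tissues. Median relative fold there was 1.22, against 0.917 in the rest of X.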

How the results depend on the processing

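No difference from the rest or from the distal ends changed direction under any alternative run, and all kept p below 0.05 except in small subsets of tissues. With the 4 tissues with input from animal A (smallest possible exact permutation p 0.125) the log2 differences were 0.55 for density, 0.95 for coverage, 0.25 for width and 0.18 for relative fold, and sharing differed by 6.41 points (all tissues of the subset) and -1.78 (1 tissue). With the 5 lists whose shortest peak was over 200 bases (smallest possible 0.0625) they were 0.53, 0.93, 0.25, 0.17, 7.82 and -1.28. Peaks of 1 tissue differed by -1.16 points within the 7 tissues with input from jj8 and by -1.50 within the 6 lists whose shortest peak was under 200 bases, again counted over the tissues of the subset. A 5 Mb limit lowered the log2 differences to 0.40 for density, 0.64 for coverage, 0.14 for width and 0.12 for relative fold, and sharing to 6.40 points. Keeping the 50% of peaks with the highest fold in a list gave 0.78 for density, -1.12 points for peaks of 1 tissue and 0.497 points for these against the distal ends, mean width in place of the median gave 0.39, and equal weight for each autosome gave 6.36 points for sharing. Leaving out 1 tissue gave 0.56 to 0.58 and leaving out 1 autosome 0.53 to 0.61 for density. Leaving out autosomes and weighting by classes of peak width were chosen after the data were seen. Proximal and other peaks were compared within each list, but no pairing by animal was possible because each tissue had 1 list for both libraries. Density per Mb of resolved sequence or per 1000 CpG was not run. Read depth, which limits weak peaks, is unknown.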
